A study of Rattus norvegicus with 6 samples.

Results

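The podocyte gene module is a set of 31 genes known from podocytes, the epithelial cells that wrap the capillaries of the glomerulus, followed here in the renal cortex of rats given water or dipropylene glycol. Probes were taken as members when the RefSeq transcript of the probe belonged to a listed gene. In all, 57 probes of 26 genes matched, and 55 of these probes, from the same 26 genes, were kept after a filter on dim spots, among 29647 features tested. No probe was matched to Npnt, Dach1, Inf2, Lmx1b or Itga3, so these 5 members have no value. The animals were 6 male Sprague-Dawley rats of the Crl:CD(SD) stock, bought at 5 weeks of age. Controls were 3 rats that received water, and the other 3 received dipropylene glycol (DPG), used as a solvent, at a daily dose of 1000 mg/kg. Both ran for 4 weeks. RNA of each animal's renal cortex was hybridised to 1 single-colour Agilent array. The comparison asked how expression in the renal cortex of DPG rats differed from that of water controls.

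The podocyte sends out interlocking foot processes, and the gaps between them are bridged by the slit diaphragm, a cell junction built around nephrin. Foot processes are held open by an actin cytoskeleton, anchored to a laminin and collagen basement membrane through integrins, and kept in shape by a small set of transcription factors. Podocytes are a minor cell type of the cortex, which is mostly tubule, so a whole-cortex array reads their genes diluted by tubular RNA. In such bulk tissue fewer podocytes and less RNA per podocyte cannot be told apart.

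Between 39556 and 43184 of 61537 probes were well above background on each array, and 0 spots were saturated. Control 3 had the fewest such probes and 34 spots with outlier flags. Each group had a slide and a scan run to itself, so these and the treatment cannot be told apart. Of the defining podocyte genes, Nphs1, Podxl, Synpo, Wt1 and Ptpro were well above background on 6 of 6 arrays, as were the probes that stood for the other 21 measured members. Signals below are multiples of the 75th percentile of the same array, and they compare arrays for 1 probe, never 1 gene with another. Log2 fold changes are DPG over control, with the standard error (SE) from limma and n = 3 per group.

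The direction of the members differed with how restricted to podocytes they were listed to be. Of the 16 measured members listed as largely podocyte genes in adult cortex, 16 had a lower mean in DPG. Their median log2 fold change was -0.22, led by Tcf21, Kirrel1, Nphs1, Nes, Magi2 and Foxc2. Of these, Kirrel1 and Magi2 had dim probes (signals of 0.042 to 0.082 and 0.027 to 0.044) and groups that overlapped. Over all features 49.2% had a log2 fold change below 0, and the median was 0.00. Of the 10 measured members listed as also expressed by other cortical cells, such as Actn4, Tjp1 and Lamb2, 2 were lower and 8 higher. Their median was 0.09. This split of the list was made with earlier results of these arrays known, and it is given as a count without a test. Whole-cortex arrays cannot check how restricted to podocytes each gene is.

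No member passed limma's Benjamini-Hochberg adjusted threshold of 0.05, where 0 of 29647 features (0%) passed. At an unadjusted p of 0.05, 5 of 26 members were lower in DPG (Nphs1, Ptpro, Nes, Wt1 and Foxc2), which is 19.2% of them, against 5.7% of all features. On the higher side 0 of 26 members passed, against 6.68% of all features. All DPG arrays lay below all controls for 6 members (23.1%, against 8.96% of all features), the 5 above and Tcf21. The reverse held for 1 member, Actn4, against 10.7% of all features. The count of 5 fell to 0 without control 1, to 1 without DPG 1 and to 2 without DPG 2, where 3.93%, 4.12% and 4.15% of all features were lower at that p. It was 3 with median scaling (4.58% of all features), 3 with normexp background correction (7.09%) and 2 with no filter on dim probes (3.58%).

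**Figure D1:**
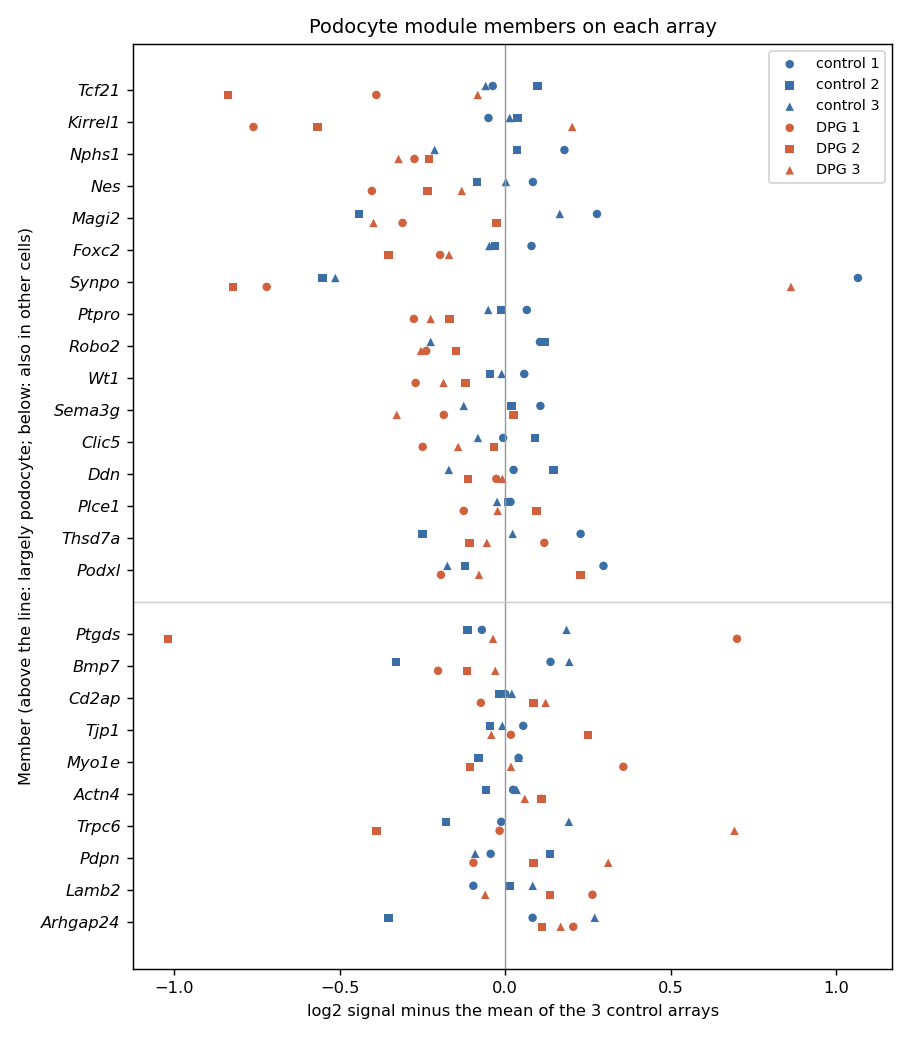
Log2 signal of each measured member on each array, minus the mean of the 3 control arrays (x axis), for the 16 largely podocyte members above the line and the 10 more broadly expressed ones below it. Blue marks are controls and orange marks DPG arrays, with 1 shape per replicate number. The DPG marks lie left of the control marks without overlap for Tcf21, Nphs1, Nes, Foxc2, Ptpro and Wt1, and Synpo separates into a high pair (control 1 and DPG 3) and 4 low arrays.

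The promoters of 5 of the 6 members with non-overlapping lower signal in DPG were in the RefSeq promoter table for GRCr8. They are shown as the 250 bases before the annotated start, on the gene's strand, because these genes were low on the same 3 arrays. Capitals mark matches, on either strand, to 4 motifs searched: the E-box CANNTG, which transcription factors of the class of Tcf21 bind, a forkhead motif TGTTTNC, a motif of the WT1 and EGR type GCGNGGGNG, and the homeobox motif TAATTA.
Nphs1 (chr1:94848011-94848260, plus strand): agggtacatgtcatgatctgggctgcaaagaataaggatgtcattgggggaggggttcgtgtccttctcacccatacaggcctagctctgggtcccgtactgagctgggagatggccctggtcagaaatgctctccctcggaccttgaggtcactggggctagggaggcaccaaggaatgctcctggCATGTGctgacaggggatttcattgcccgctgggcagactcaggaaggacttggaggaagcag
Ptpro (chr4:171895261-171895510, plus strand): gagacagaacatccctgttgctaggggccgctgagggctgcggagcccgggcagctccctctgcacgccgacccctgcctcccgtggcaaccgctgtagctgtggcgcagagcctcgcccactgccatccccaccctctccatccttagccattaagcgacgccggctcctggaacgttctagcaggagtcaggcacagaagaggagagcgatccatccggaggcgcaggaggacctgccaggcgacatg
Nes (chr2:175736338-175736587, plus strand): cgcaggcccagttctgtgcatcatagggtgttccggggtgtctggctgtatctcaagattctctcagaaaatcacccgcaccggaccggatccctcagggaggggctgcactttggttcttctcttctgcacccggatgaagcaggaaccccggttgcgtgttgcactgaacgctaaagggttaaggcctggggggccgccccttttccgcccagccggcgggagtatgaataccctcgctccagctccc
Wt1 (chr3:112021759-112022008, plus strand): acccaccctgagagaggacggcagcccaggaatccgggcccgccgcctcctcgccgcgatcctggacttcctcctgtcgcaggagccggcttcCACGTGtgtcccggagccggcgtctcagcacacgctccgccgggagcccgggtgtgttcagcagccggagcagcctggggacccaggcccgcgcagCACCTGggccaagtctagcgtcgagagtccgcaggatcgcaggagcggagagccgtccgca
Tcf21 (chr1:24520249-24520498, plus strand): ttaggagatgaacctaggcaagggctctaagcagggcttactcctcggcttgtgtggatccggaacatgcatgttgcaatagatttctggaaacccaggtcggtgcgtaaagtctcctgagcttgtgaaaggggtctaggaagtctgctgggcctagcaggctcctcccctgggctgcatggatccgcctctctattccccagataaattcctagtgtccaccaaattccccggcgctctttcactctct
The Nphs1 window held 1 E-box and that of Wt1 2 E-boxes, and the other 3 windows held no match to these letters. Wt1 had the richest window in G and C (71.6%, with 27 CpG), and Tcf21 (53.6%, 7 CpG) and Nphs1 (57.2%, 4 CpG) the poorest of the 5. Across the 13 promoters of largely podocyte members in the table the median content of G and C was 64.8% with 17 CpG, against 51.2% and 5 CpG over 33469 promoters of the same length. An E-box was found in 5 of these 13 (38.5%), against 65.5% of all promoters, a WT1 and EGR type match in 1 (7.69% against 9.4%), and a forkhead or homeobox match in 0 (against 18.3% and 4.86%).

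At the slit diaphragm, Nphs1 encodes nephrin, the adhesion protein that spans the gap between foot processes. Its signal was 2.04, 1.84 and 1.55 in controls 1 to 3 and 1.49, 1.54 and 1.44 in DPG 1 to 3. Each DPG array lay below each control, with control 3 and DPG 2 nearly level, and the highest value was that of control 1. The log2 fold change was -0.28 ± 0.11, a 1.21-fold lower signal (limma unadjusted p = 0.0492, adjusted p = 0.402 over all features), and a second probe gave -0.41, also without overlap. Kirrel1 encodes Neph1, the partner that nephrin binds across the slit. It read 0.0690, 0.0733 and 0.0721 in the controls and 0.0422, 0.0482 and 0.0822 in DPG. DPG 1 and DPG 2 were low while DPG 3 was the highest of the 6 arrays, and the log2 fold change of -0.38 ± 0.25 came with a limma unadjusted p = 0.182. It was -0.66 without DPG 3, -0.18 without DPG 1 and -0.13 with normexp. The scaffold gene Magi2 had -0.24 ± 0.21, with control 2 the lowest array, and read -0.47 without control 2, -0.11 without control 1 and -0.09 with normexp. Plce1, a phospholipase C of podocyte development, had -0.02 ± 0.08. The more broadly expressed slit components gave small positive values, 0.04 ± 0.08 for the adaptor gene Cd2ap, 0.07 ± 0.10 for Tjp1, which encodes the junction scaffold ZO-1, and 0.10 ± 0.28 for the cation channel gene Trpc6. The 6 probes of Tjp1 lay between -0.01 and 0.15, while a second, dim Trpc6 probe read -0.38.

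Among genes of the podocyte surface, Ptpro, a receptor tyrosine phosphatase of the foot process membrane, had the smallest p of the module. Its signal was 6.32, 5.98 and 5.83 in the controls and 4.99, 5.38 and 5.17 in DPG. The groups did not overlap, and their SDs on the log2 scale were 0.06 and 0.05. The log2 fold change was -0.22 ± 0.07 (limma unadjusted p = 0.0173, adjusted p = 0.326), and its 3 probes ran from -0.36 to -0.15, each without overlap. Podxl encodes podocalyxin, the sialic acid rich coat protein that keeps foot processes apart. It read 21.4, 16.1 and 15.5 in the controls and 15.3, 20.4 and 16.5 in DPG. Control 1 and DPG 2 stood above the other 4 arrays, the groups overlapped, and the log2 fold change was -0.02 ± 0.17 (95% interval -0.43 to 0.40). Clic5, which helps link podocalyxin to the cytoskeleton, had -0.14 ± 0.09, with its 3 probes between -0.21 and -0.14, but -0.01 with normexp and -0.09 without DPG 1. Thsd7a, a surface protein known as a target of autoantibodies in membranous nephropathy, had -0.02 ± 0.14. Pdpn, the mucin-like podoplanin gene that lymphatic endothelium also expresses, had 0.10 ± 0.13, and its 3 probes lay on both sides of 0.

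In the cytoskeleton, Nes, the intermediate filament gene nestin that marks podocytes in the adult kidney, stood lower in DPG. It read 4.05, 3.61 and 3.83 in the controls and 2.89, 3.25 and 3.49 in DPG. The groups did not overlap, although control 2 and DPG 3 were close. The log2 fold change was -0.26 ± 0.09 (limma unadjusted p = 0.0357, adjusted p = 0.378), and its 3 probes lay between -0.26 and -0.24. Synpo, which encodes the actin-associated protein synaptopodin, had the widest spread among controls of the 26 measured members. Its single probe read 0.521, 0.170 and 0.174 in the controls and 0.151, 0.141 and 0.453 in DPG. Control 1 and DPG 3 were high and the other 4 arrays low, so the spread within each group (SD 0.92 and 0.94, log2) was larger than the difference of -0.23 ± 0.63. Ddn, the dendrin gene, had -0.05 ± 0.10. The broadly expressed actin genes were slightly higher. Actn4, the actin crosslinker alpha-actinin-4, read 21.3, 20.1 and 21.4 in the controls and 22.6, 22.6 and 21.8 in DPG. These groups did not overlap, yet the log2 fold change was 0.09 ± 0.06 (limma unadjusted p = 0.194) and a second probe gave 0.01 with overlap. Myo1e, an unconventional myosin gene, had 0.09 ± 0.13, with 1 of 3 probes at -0.17. Arhgap24, a GTPase-activating protein that restrains Rac1, had 0.16 ± 0.16.

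The 3 measured transcription factors of the module were all lower in DPG without overlap between the groups, as were 8.96% of all features. They are among the 6 such members counted above. Wt1, the zinc finger regulator that podocytes keep expressing in the adult, read 0.877, 0.816 and 0.836 in the controls and 0.698, 0.775 and 0.740 in DPG. The highest DPG array lay just under the lowest control. The log2 fold change was -0.19 ± 0.07 (limma unadjusted p = 0.0364, adjusted p = 0.380), its 4 probes ran from -0.46 to -0.19, and 3 of the 4 did not overlap. With normexp background correction the value for Wt1 was -0.07. Foxc2, a forkhead factor, read 0.670, 0.620 and 0.613 in the controls and 0.553, 0.497 and 0.563 in DPG. Its log2 fold change was -0.24 ± 0.08 (limma unadjusted p = 0.0247, adjusted p = 0.350), and the second probe gave -0.19 with overlap. Tcf21, a bHLH factor of podocytes and of kidney mesenchyme, read 0.903, 0.991 and 0.890 in the controls and 0.707, 0.518 and 0.875 in DPG. DPG 2 was by far the lowest array and DPG 3 lay close to the controls. The log2 fold change of -0.44 ± 0.19 was the lowest of the module, with a limma unadjusted p = 0.0641 and a second probe at -0.49. Without DPG 2 it was -0.24.

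Of the matrix and guidance genes, Robo2, the receptor of Slit guidance cues, gave -0.21 ± 0.11, with control 3 as low as the DPG arrays. A second, dimmer Robo2 probe gave -0.78 without overlap, and in limma fitted to every kept probe its unadjusted p = 0.00128. Robo2 was thus -0.50 as the mean of both kept probes (limma adjusted p = 0.214), -0.33 without control 3 and -0.02 with normexp. Lamb2, the laminin beta-2 chain of the mature glomerular basement membrane, had 0.11 ± 0.10. Among secreted products, Sema3g, a semaphorin of podocytes, had -0.16 ± 0.12. Bmp7, a growth factor of the TGF-beta family made by podocytes and distal tubule, had -0.12 ± 0.15, with -0.28 without control 2, -0.02 without control 3 and -0.24 with normexp. Ptgds, the prostaglandin D2 synthase gene, had -0.12 ± 0.42, with DPG 1 the highest and DPG 2 the lowest of the 6 arrays, at 21.4 and 6.51.

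**Figure D2:**
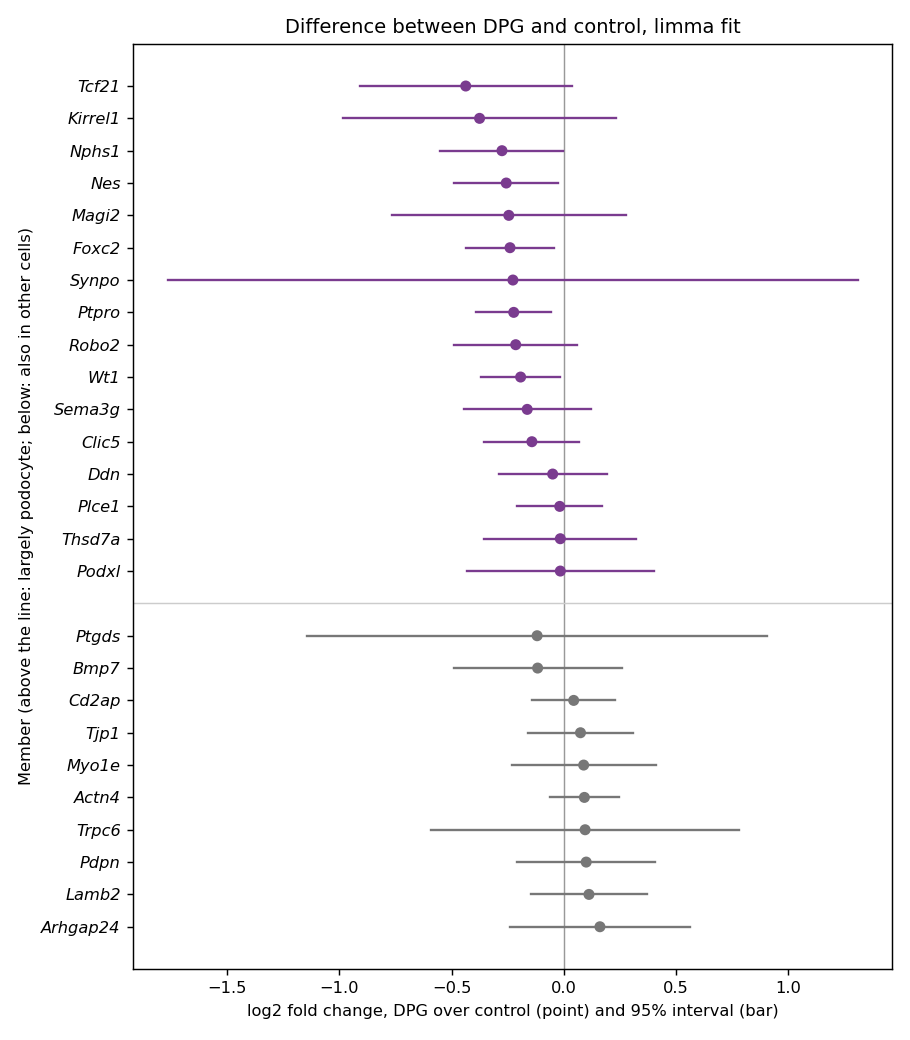
Log2 fold change of each measured member, DPG over control (point), with the 95% interval from limma (bar), for 3 arrays per group. Purple marks the 16 largely podocyte members and grey the 10 more broadly expressed ones. All 16 purple points lie below 0, and the bars of Nphs1, Nes, Foxc2, Ptpro and Wt1 end below 0, that of Nphs1 barely.

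Separate probes of 1 gene were read on the same arrays, so they repeat the measurement and not the animals. Of 32 kept probes of the largely podocyte members, 31 had a lower mean in DPG and 1, for Sema3g, was at 0.00. For 15 of the 32 all DPG arrays lay below all controls, against 9.21% of all kept probes, and for 0 the reverse held. Of the 23 kept probes of the other members, 7 were lower and 16 higher, with 0 non-overlapping on the lower side. Signs differed between probes for Tjp1, Trpc6, Pdpn, Myo1e and Sema3g.

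**Figure D3:**
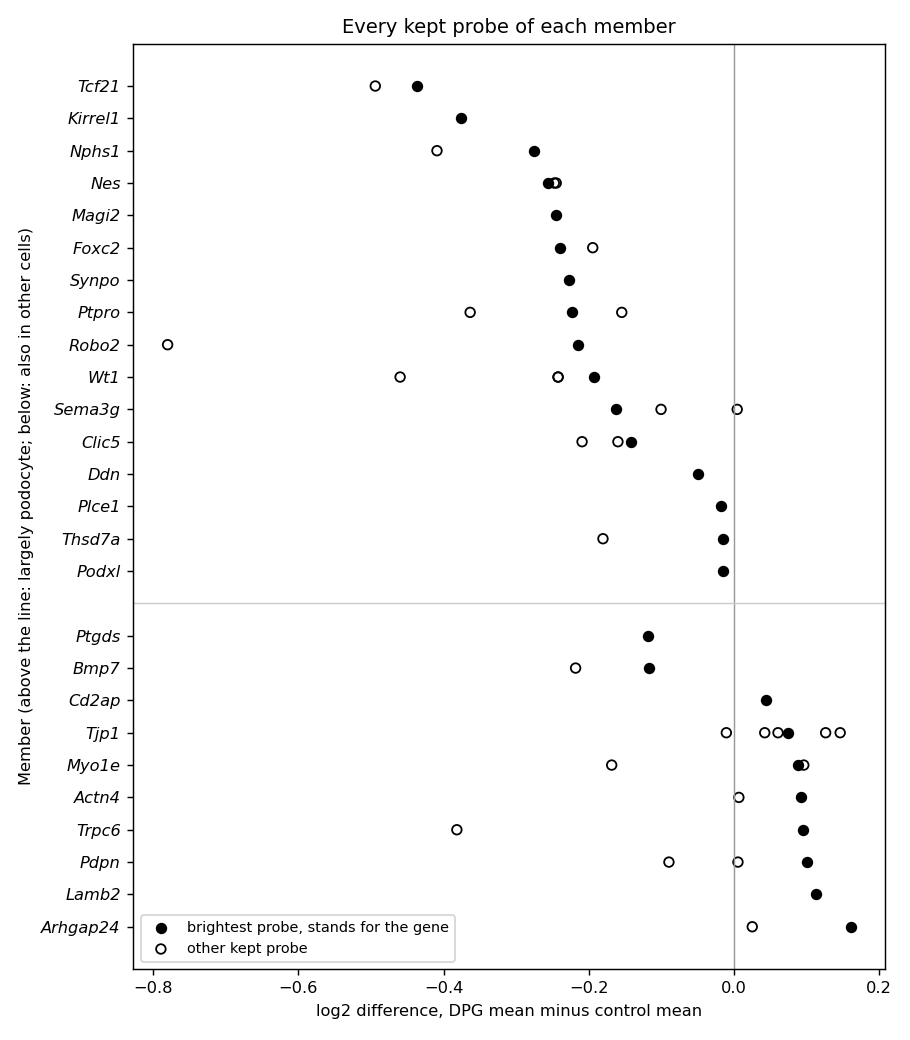
Log2 difference, DPG mean minus control mean, of every kept probe of each member. Filled points are the brightest probe, which stands for the gene, and open points are its other kept probes. For the members above the line 31 of 32 probes lie left of 0, and the Robo2 probe at -0.78 lies farthest out.

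A score of the module was taken for each array as the mean over members of the log2 signal minus the control mean. Over 26 members it was 0.10, -0.08 and -0.02 in controls 1 to 3 and -0.12, -0.16 and -0.01 in DPG 1 to 3. Control 1 stood above every other array, and DPG 3 lay among the controls, so the groups overlapped. The mean of the DPG arrays was -0.10, close to the spread within the groups (SD 0.09 and 0.08). Over the 16 largely podocyte members the score was 0.16, -0.06 and -0.09 in the controls and -0.28, -0.21 and -0.08 in DPG. Here DPG 3 lay just above control 3, so the groups overlapped, and the DPG mean was -0.19. With Synpo left out, which was chosen after its values were seen, the controls read 0.09, -0.03 and -0.07 and the DPG arrays -0.25, -0.17 and -0.15, without overlap.

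Control 1 carried much of the difference. It was the highest control for 11 of the 16 largely podocyte members (68.8%), where it was so for 36.2% of all features, and for 1 of the 10 others. In the marker lists of other cells given below this share varied widely. It was 70% for the collecting duct and 66.7% for the convoluted proximal tubule. For the straight proximal tubule it was 11.1%, and for the thick ascending limb and distal tubule 0%. Without control 1 the score of the largely podocyte members was -0.12 and that of the whole module -0.05. In that setting 13 of the 16 remained below 0, against 47.8% of all features, and Podxl, Thsd7a and Synpo were above it. Within the DPG group the largely podocyte members lay below the control mean in 15, 13 and 14 of 16 cases on DPG 1 to 3. On controls 1 to 3 this held for 3, 8 and 12 of 16. The shares of all features below were 49.45%, 50.14% and 46.72% on DPG 1 to 3, and 45.89%, 49.36% and 53.38% on controls 1 to 3.

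Other genes of the podocyte and the filtration barrier, from a list of 50 of which 40 were measured, were mostly above 0. Of these, 12 were below 0 and 28 above, with a median of 0.05, and at an unadjusted p of 0.05 3 were lower (7.5%, against 5.7% of all features) and 7 higher (17.5%, against 6.68%). Many of them are expressed widely outside the glomerulus. Col4a4, a collagen IV chain that podocytes lay down in the mature basement membrane, read 5.33, 5.07 and 5.61 in the controls and 4.13, 4.40 and 3.91 in DPG. The groups did not overlap, and the log2 fold change was -0.36 ± 0.08 (limma unadjusted p = 0.00344, adjusted p = 0.252). On the higher side Agrn, a heparan sulfate proteoglycan of basement membranes, read 24.4, 27.0 and 25.2 in the controls and 37.7, 36.3 and 35.9 in DPG. Its log2 fold change was 0.52 ± 0.07 (limma unadjusted p = 0.000287, adjusted p = 0.211), with its 3 probes between 0.20 and 0.52. Foxc1, the paralogue of Foxc2, had 0.68 ± 0.20, opposite in sign to Foxc2. The cadherin gene Fat1 had 0.34 ± 0.11. The endopeptidase gene Mme, which the proximal tubule brush border also expresses, had 0.54 ± 0.16.

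Lists taken as markers of the other glomerular cells had medians nearer to 0. Bulk cortex cannot show whether these genes are read from the glomerulus only. Of 9 measured mesangial markers 5 were below 0 (median -0.08), with shifts of 0.09, 0.04 and -0.13 in the controls and 0.01, -0.10 and 0.00 in DPG. Of 11 glomerular endothelial markers 7 were below 0 (median -0.06). Their shift ran from -0.08 to 0.08 in the controls and from -0.05 to -0.01 in DPG. The 2 endothelial markers of smallest p were among the 4 above 0, unlike most of the list. Of these, Ehd3, which marks glomerular capillaries, had 0.36 ± 0.11, and Pecam1 had 0.18 ± 0.07. Control 1 was the highest control in the mesangial and endothelial lists, as in the podocyte one, and control 2 in the parietal list. This was not limited to glomerular lists. Control 1 was also the highest control for convoluted proximal tubule (0.07), collecting duct (0.07) and fibroblast and smooth muscle markers (0.12). It was the lowest control for markers of the straight proximal tubule (-0.28) and of the thick ascending limb and distal tubule (-0.09). Parietal epithelial markers had 3 of 7 below 0, with Pax8 at 0.28 ± 0.08 and Krt8 at -0.28 ± 0.08. Whether the podocyte shift differed from that of these lists was not tested.

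Marker lists of the tubule also stood apart between the groups. Markers of the convoluted proximal tubule were lower in 8 of 9 cases (median -0.29), with a mean shift from -0.11 to 0.07 in the controls and from -0.25 to -0.15 in DPG. Collecting duct markers were lower in 8 of 10 (median -0.20), with shifts from -0.06 to 0.07 and from -0.21 to -0.09. Markers of the straight proximal tubule were higher in 7 of 9 (median 0.43), with shifts from -0.28 to 0.20 and from 0.29 to 0.53. The joint list of the thick ascending limb and distal tubule was higher in 5 of 7 (median 0.25), with shifts from -0.09 to 0.15 and from 0.20 to 0.29. The distal markers Slc12a3 (-0.02) and Calb1 (-0.34), named after their values were seen, were the 2 below 0. Their summed signals ranged from 688 to 759 in controls and 620 to 682 in DPG for the convoluted tubule, from 280 to 297 and 242 to 295 for the collecting duct, from 587 to 726 and 865 to 925 for the straight tubule, and from 540 to 585 and 650 to 702 for the thick limb and distal tubule. For the largely podocyte members the sums were 45.1 to 53.7 in the controls and 41.1 to 48.9 in DPG. Heat shock genes were listed as a possible sign of handling, and whether handling or DPG lay behind their values was not tested. They were higher in 4 of 4, with a shift from 0.40 to 0.84 in DPG against -0.05 to 0.07 in the controls. Their summed signals were 276 to 301 in DPG against 221 to 266. All these sums weigh the brightest probes most. Hspa8 alone read 217 to 262 in the controls and 271 to 294 in DPG, and Umod of the thick limb list 483 to 517 and 578 to 627. Leukocyte markers shifted by -0.14, 0.17 and -0.03 in controls 1 to 3 and by 0.25, -0.13 and 0.40 in DPG 1 to 3. Those of fibroblasts and smooth muscle shifted by 0.12, 0.10 and -0.22 in the controls and by 0.04, 0.01 and 0.28 in DPG. Both lists overlapped between the groups. Adipocyte markers were lower in 2 of 3 (median -0.29), while their mean shift was 0.38 with Fabp4 at 1.89, and those of red blood cells in 1 of 4 (median 0.07). Every measured marker of the lists in this paragraph was well above background on at least 5 arrays. The part of these lists in the podocyte values was not tested.

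**Figure D4:**
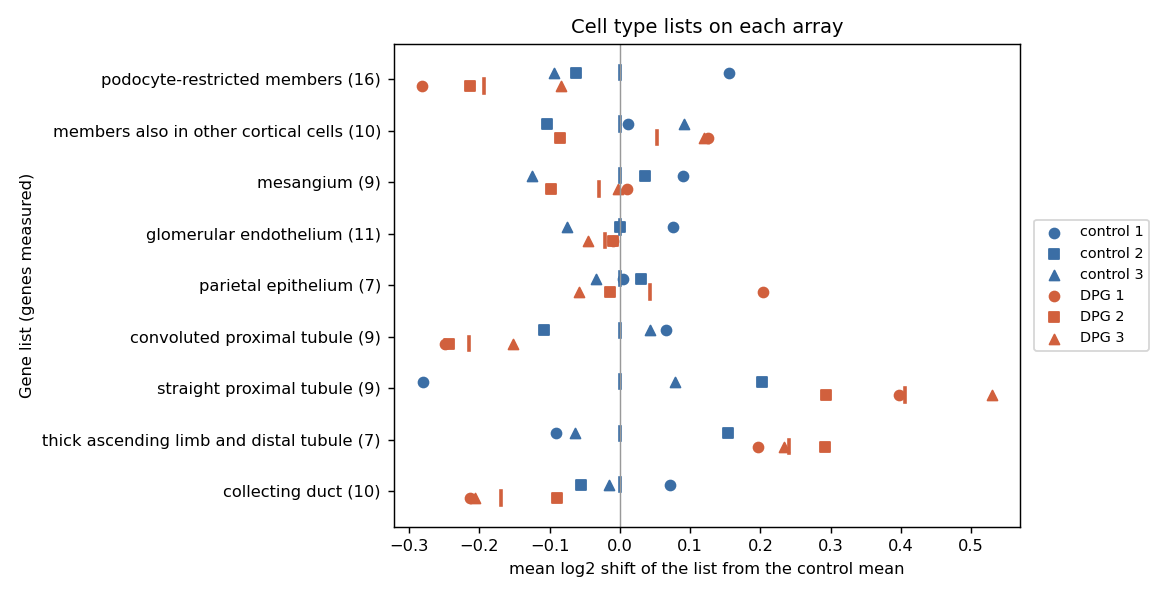
Mean log2 shift of each gene list from the control mean on each array (x axis), with the number of genes measured in brackets, for podocyte members, other glomerular cells and tubule segments. Blue marks are controls, orange marks DPG arrays, and the vertical ticks are group means. The largely podocyte members average -0.19 in DPG with DPG 3 touching the controls, while the mesangial and endothelial lists overlap between groups and the tubule segments part in both directions.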

How the data were processed

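RNA of 6 animals was measured on 1 array each. Scanner output came from Agilent Feature Extraction 10.7.1.1 per the file headers (10.7 per the submitters' processing notes). Per the file headers, that software gave each spot an intensity that was background-subtracted and detrended, and these deposited intensities were used. The deposited series table holds the ratio of each signal to about the array's 75th percentile, found by comparing both, and its scaling method was not stated in the labels.

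Without control spots, log2 intensity had each array's 75th percentile subtracted. Probes well above background on 3 arrays of at least 1 group were kept, 23 with outlier flags were dropped, and the brightest kept probe stood for a gene. Probes were named by accession through the RefSeq table for GRCr8 (28206 of 61537 matched 1 symbol). The 2 groups were compared over all features with limma 3.58.1 under R 4.3.3, two-sided, using lmFit, eBayes and Benjamini-Hochberg adjustment. With 3 animals a side, 0.1 is the smallest two-sided p of an exact permutation test, so none was used. The fit was tested on simulated data. Members, lists and the podocyte split were chosen with earlier results of these data known. Members are all named, with the other barrier genes of smallest p (6 by the rule, of which 1 is not reported here) and up to 2 markers per list. The number of arrays limits the precision. Each array is of a separate animal, per the labels' protocols. Other scalings, background correction, probe filters and summaries, variance settings, a replicate block and leaving out each animal were tried as alternatives.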

Additional observations from a re-analysis of the deposited data

How the results depend on the processing

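The count of features past the adjusted threshold was 0 in each alternative with 6 arrays, every kept probe on its own included, which was chosen after seeing the data, and from 0 to 1 when single animals were dropped (1 without DPG 2). Members at an unadjusted p of 0.05 on the lower side numbered 5, against 3 with median scaling, 3 with normexp, 2 with no filter on dim probes, 6 with an intensity trend and robust variance, 1 with the replicate block (4.68% of all features), and from 0 to 5 with an animal left out. Over all features the share was 5.7%, against 4.58%, 7.09%, 3.58% and 5.8% in the first 4 of these alternatives. The cause was not tested. Same-numbered animals did not deviate together (correlations -0.02, -0.09 and -0.07), so the replicate block pairs only numbers. The module score of -0.10 was -0.19 over podocyte-restricted members only, by construction, -0.05 with normexp, and from -0.14 to -0.05 with an animal left out. The score of the largely podocyte members kept its sign in all 15 alternatives, from -0.25 to -0.12. It stayed at -0.193 under the variance setting, the replicate block and the other dim-probe filters, where it could not change. With normexp the score was -0.12, and 14 of 16 lay below 0. Without Synpo it was -0.19.

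Of 390 member values under alternatives, 369 kept their direction and 21 turned. Part of the 369 could not turn. The variance setting and the replicate block leave a fold change as it is, and the other dim-probe filters kept the same brightest probes. With normexp Cd2ap was -0.11, Plce1 0.055 and Podxl 0.0195, and with the mean of a gene's probes Trpc6 was -0.14. With an animal left out, values ranged from -0.14 to 0.13 for Podxl, -0.14 to 0.10 for Thsd7a, -0.77 to 0.31 for Synpo, -0.015 to 0.30 for Arhgap24, -0.13 to 0.023 for Ddn, -0.074 to 0.036 for Plce1, -0.045 to 0.19 for Myo1e, -0.013 to 0.13 for Tjp1, -0.53 to 0.33 for Ptgds, -0.20 to 0.34 for Trpc6 and -0.0051 to 0.198 for Pdpn. No fit with slide as a block exists, since slide and treatment coincide.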
